A study of Bos taurus with 3 samples.

Results

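The S100 and annexin genes of bovine fetal fibroblasts were examined in RNA-seq libraries of BFF116 cells, a culture used as nuclear donors for somatic cell nuclear transfer. Members were chosen by symbol alone, as every table row named S100A with a number, S100B, S100G, S100P, S100Z, ANXA with a number or ANXA8L1, and 29 of 31903 genes met this rule, 17 S100 genes and 12 annexin genes. All 3 libraries belong to a single group, Bos taurus fibroblasts of fetal origin, each library made from 70000 cells after 48 h without serum, with no other genotype, treatment or time point. The labels call the replicates biological without naming the cultures or animals behind them, so differences between these 3 samples may be technical. P-values here compare a gene's spread over these 3 samples with that of genes of similar level. Gene reads per library were 8608350 in replicate 1, 4842331 in replicate 2 and 7122651 in replicate 3. Levels are given as CPM, the reads of a gene per 1000000 gene reads after TMM scaling, and a gene is called measured where it reached 1 CPM in every library.

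S100 proteins are small calcium sensors of the EF-hand class that work mostly as dimers, and calcium opens a surface on them that binds target proteins. Annexins bind the acidic phospholipids of membranes when calcium rises, and take part in membrane traffic, exocytosis and the resealing of a torn plasma membrane. The families meet physically, because several S100 proteins bind the N-terminal tail of an annexin and can so bridge membranes or link them to the cytoskeleton. In connective tissue S100A4 is known as fibroblast-specific protein, although other cells make it as well, and S100A8, S100A9 and S100A12 are products of neutrophils and monocytes.

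The cells expressed the listed fibroblast markers, and no list for smooth muscle cells or pericytes was compared. All 11 of 11 fibroblast markers were measured, with COL3A1 at 32239 ± 1761 CPM, COL1A2 at 26737 ± 2306 and COL1A1 at 19062 ± 3563 (mean ± SD, n = 3, as for all CPM means here). Of markers of other cells, 1 of 8 myeloid genes was measured, LYZ at 2.77 ± 0.676 CPM, 0 of 9 keratinocyte and epithelial genes, 1 of 5 glia and melanocyte genes, PMEL at 2.39 ± 0.521, and 0 of 4 cartilage genes. The summed level of these lists was 2.42 to 6.77 CPM for myeloid, 1.43 to 4.43 for epithelial, 1.97 to 2.97 for glia and melanocyte and 0.202 to 1.07 for cartilage genes over the libraries. The highest unmeasured markers were FCER1G (26, 1 and 14 reads) and CSF1R (1, 1 and 10) of the myeloid list, KRT19 (1, 9 and 7), KRT8 (3, 8 and 5) and CDH1 (5, 4 and 6) of the epithelial list, and ACAN (9, 1 and 3) and COL2A1 (0, 0 and 2) of the cartilage list. PTPRC, CD14, TYROBP, EPCAM, SOX10 and GFAP had 0 reads in every library.

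Members with a mean of 100 CPM or more carried nearly all reads of both families, and the rest ranged from 79.8 CPM (ANXA11) down to no reads. Of the 29 members 18 were measured, against 34.6% of all genes in the table. These were 9 of 17 S100 genes and 9 of 12 annexin genes. A mean of 100 CPM or more was reached by 11 members, against 5.32% of all genes, and 1000 CPM by 4, against 0.345%. The median over the 29 members was 25.1 CPM, and over all genes, including those with 0 reads, it was 0.134 CPM. Among measured genes alone the medians were nearer, 107 CPM for the 18 members and 20.5 CPM for all genes. By family these medians were 39.6 CPM for measured S100 genes and 126 CPM for measured annexins. No reads in any library were found for 8 members, against 43.5% of all genes, and the other 3 had a few reads but did not reach 1 CPM in every library.

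Together the members took 1.31, 1.36 and 1.33% of gene reads in replicates 1 to 3. S100 genes held 0.507, 0.540 and 0.556% (mean 0.534 ± 0.0250%) and annexin genes 0.801, 0.823 and 0.772% (mean 0.798 ± 0.0257%). In all 3 libraries the annexin share was the higher of the pair. Transcript lengths are not in the sources used here, so reads of different genes, and the shares of both families, are compared as reads only and not as numbers of molecules. The change of 1 gene between libraries, and the change of a ratio of genes between libraries, do not depend on length.

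**Figure D1:**
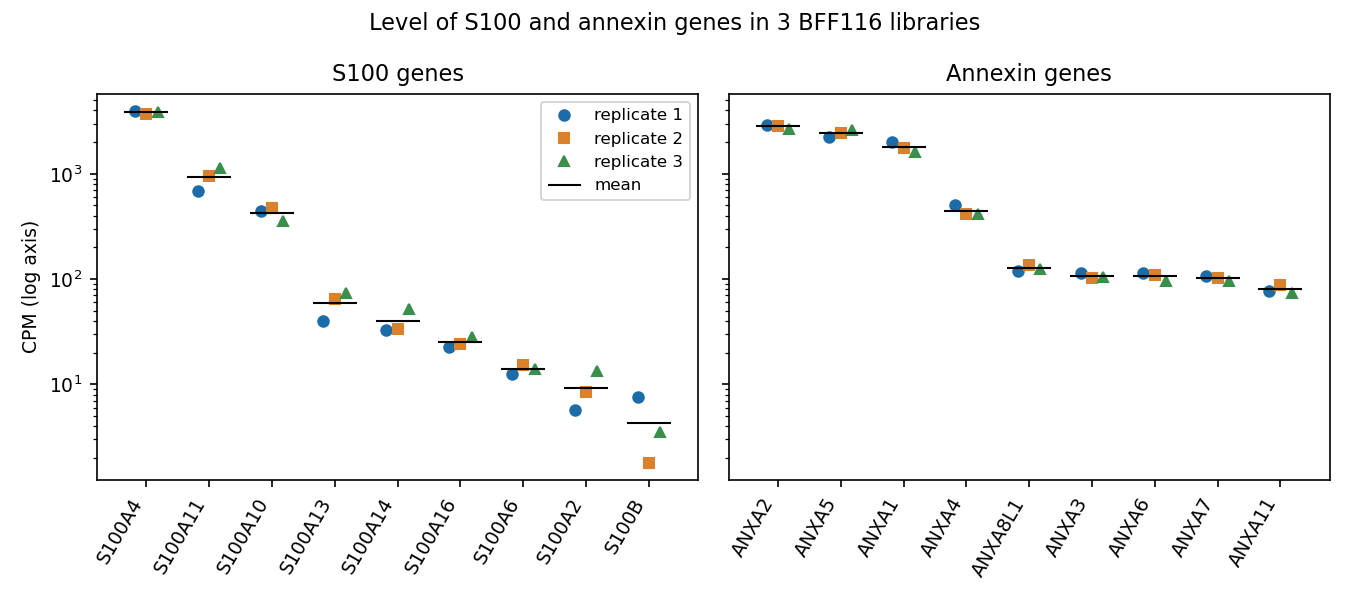
CPM (log axis) of the 9 measured S100 genes and the 9 measured annexin genes, with 1 point per library and a line at the mean of the 3 replicates. S100 genes run from 3841 CPM for S100A4 down to 4.31 for S100B, while the measured annexins lie between 2812 CPM for ANXA2 and 79.8 for ANXA11.

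S100A4, which binds the heavy chain of non-muscle myosin and affects cell motility, took most S100 reads. Its level was 3939, 3697 and 3886 CPM in replicates 1 to 3, from 33157, 18348 and 27619 reads, with a mean of 3841 ± 127 CPM. The libraries lay within 1.07-fold of each other, and the gene ranked 19 of all genes by mean CPM. It held 76.0, 70.2 and 69.7% of S100 reads in the 3 libraries.

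S100A11 and S100A10 came next in reads. S100A11, a partner of annexin A1 that is also secreted by several cell types, stood at 680, 948 and 1145 CPM (mean 924 ± 234). It was lowest in replicate 1 and highest in replicate 3, a 1.68-fold range. S100A10, also called p11, is the constitutive partner of annexin A2 and is unusual among S100 proteins because its calcium-binding loops no longer bind calcium. It stood at 444, 474 and 356 CPM (mean 425 ± 60.9), lowest in replicate 3.

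Below these lay 4 genes between 10 and 100 CPM. S100A13, which takes part in the release of FGF1 and IL1A, was at 39.9, 64.9 and 73.3 CPM (mean 59.4 ± 17.4). S100A14, best known from epithelia, was at 32.9, 33.9 and 52.1 CPM (mean 39.6 ± 10.8). The summed level of the 9 epithelial markers was 1.43, 4.43 and 3.94 CPM in the same libraries, and the part of such cells in the S100A14 level was not tested. S100A16, which is widely expressed, was at 22.6, 24.2 and 28.4 CPM (mean 25.1 ± 3.02). S100A6, or calcyclin, which binds the ubiquitin ligase adaptor CACYBP, had only 105, 76 and 99 reads, or 12.5, 15.3 and 13.9 CPM (mean 13.9 ± 1.42). Its coefficient of variation over the libraries, 10.2%, was no larger than the 10.5% that counting error alone gives at these reads. S100A4 and S100A6 had 79124 and 280 reads in all, with a log2 ratio of 8.06 ± 0.19. Whether the S100A6 row covers the whole gene in the annotation the authors used is not known, so its reads, and each ratio that holds them, may not stand for the whole transcript.

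S100A2 and S100B were low but measured. S100A2, a mostly epithelial and nuclear member, had 48, 42 and 95 reads (5.70, 8.46 and 13.4 CPM, mean 9.18 ± 3.88). S100B, a marker of glia, melanocytes and cartilage, had 64, 9 and 25 reads, or 7.60, 1.81 and 3.52 CPM (mean 4.31 ± 2.97). It was highest in replicate 1, and its mean was 2.70 CPM without that library. Of the 5 glial and melanocyte markers PMEL alone had reads, at 2.97, 2.22 and 1.97 CPM in replicates 1 to 3. The summed level of the 4 cartilage markers in the table was 1.07, 0.202 and 0.704 CPM, and both were highest in replicate 1. The part of such cells in the S100B level was not tested.

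S100A5 had 15, 8 and 0 reads and S100A3 0, 0 and 4 reads. Both lie beside S100A4 in the reference gene order, and since the strand setting of the counting is not known, reads reaching them from a neighbouring or overlapping gene cannot be told apart from their own. S100A1, a heart and muscle member, S100A7 (psoriasin), the neutrophil and monocyte genes S100A8, S100A9 and S100A12, and S100Z had 0 reads in every library. A count of 0 allows up to 3 reads, which is 0.356, 0.605 and 0.422 CPM in replicates 1 to 3, for counting error only and provided that reads could be assigned to the gene. The table has no row named S100G or S100P.

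Annexins were led by ANXA2, ANXA5 and ANXA1, which together with ANXA4 took the larger part of annexin reads. ANXA2, which with S100A10 forms a complex at the plasma membrane that binds plasminogen and its activator, was at 2925, 2870 and 2640 CPM (mean 2812 ± 151). ANXA5, the placental anticoagulant protein used as a probe of exposed phosphatidylserine, was at 2240, 2432 and 2583 CPM (mean 2418 ± 172). ANXA1, a mediator of glucocorticoid action that acts on formyl peptide receptors when secreted, was at 1983, 1773 and 1603 CPM (mean 1786 ± 191). The 3 genes held 35.2 ± 0.927, 30.3 ± 3.01 and 22.3 ± 1.77% of annexin reads.

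Each of these 3 genes stayed within 1.24-fold over the libraries. ANXA1 and ANXA2 were highest in replicate 1 and lowest in replicate 3, while ANXA5 was lowest in replicate 1 and highest in replicate 3. In reads the order ANXA2, ANXA5, ANXA1 held in every library. The values of ANXA2 and ANXA5 were close in replicate 3, with 2640 and 2583 CPM, and their log2 ratio was 0.22 ± 0.18.

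The other measured annexins were closer together. ANXA4, a lectin-like annexin also abundant in epithelia, was at 505, 417 and 413 CPM (mean 445 ± 51.9). ANXA8L1, which the reference table also lists as ANXA8, was at 119, 137 and 124 CPM (mean 126 ± 9.37). ANXA3 stood at 107 ± 6.51, ANXA6, the annexin with a duplicated core, at 107 ± 9.36, ANXA7 at 102 ± 5.26, and ANXA11 at 79.8 ± 7.50 CPM. The ranges of ANXA3 (102 to 115 CPM), ANXA6 (96.7 to 115) and ANXA7 (96.4 to 107) overlapped, so these neighbours did not separate beyond their spread.

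Tissue-restricted annexins were at or near 0 reads. ANXA9 had 4 reads in replicate 1 and 0 in the others. ANXA10, a gene of the stomach, and ANXA13, a gene of the intestine and kidney, had 0 reads in every library.

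Most S100A genes lie in one run that also holds the genes of the epidermal differentiation complex, and reads were found at its ends but hardly between them. In the RefSeq gene table of assembly ARS-UCD2.0, used for names and gene order only, 65 genes with unique symbols lie from S100A1 to S100A10, and 48 of them, 14 of these S100 genes, have a row in the count table. The first stretch, S100A1, S100A13, S100A14, S100A16, S100A2, S100A3, S100A4 and S100A5, had 5 of 8 genes measured and 81842 reads in all libraries together. The stretch from S100A7 to S100A9 had 0 of 7 genes with a read. Between S100A9 and S100A11 lie 31 genes with a row, among them those for involucrin (IVL), loricrin (LOR) and trichohyalin (TCHH), and 0 were measured. Only 3 of these had a read, all in replicate 3: TCHH with 7 reads, PGLYRP3 with 5 and LOC788523 with 2.

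At the far end S100A11 and S100A10 lie next to each other and held 27187 reads. Outside the run the nearest genes with a row and a read were CHTOP before S100A1, at 161 ± 14.2 CPM, and THEM4 after S100A10, at 7.52 ± 0.590. S100A1, with 0 reads, thus lay between CHTOP and S100A13, both measured. S100A6 has no entry of that symbol in the reference table, so its place in the run was not determined. Of the 29 members 28 matched the table.

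**Figure D2:**
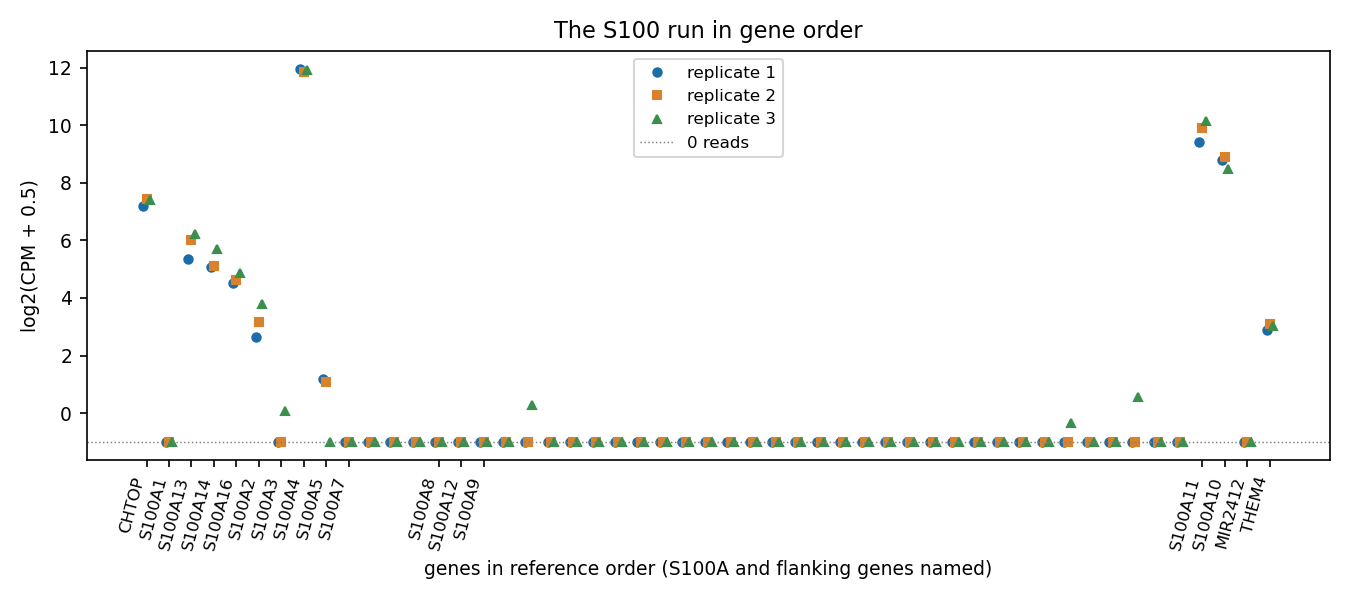
Level as log2(CPM + 0.5), 1 point per library, of the genes with a row in the count table that lie from S100A1 to S100A10 in reference order, with flanking genes at both sides; horizontal distances are gene ranks. Levels are above the line of 0 reads from S100A13 to S100A5 (except S100A3 in replicates 1 and 2 and S100A5 in replicate 3) and at S100A11 and S100A10, and of the 38 genes with a row between S100A5 and S100A11, 3 have reads.

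Whether members varied between replicates more than other genes of their level was tested for the 17 members with 10 or more reads in every library. None passed in the edgeR-based test over 10434 genes, with an adjusted p of 1.00 for each and 0 of 17 at an unadjusted p under 0.05. Over all genes 2 passed, 0.0192% of those tested, and 5.24% had an unadjusted p under 0.05. In this edgeR-based test over all genes the smallest unadjusted p-values among members were 0.217 for S100A11, 0.234 for S100A13, 0.236 for S100A2 and 0.315 for S100A14. S100B could not enter because of its 9 reads in replicate 2. With all genes of 1 read or more admitted, its unadjusted p in the same edgeR-based test was 0.116 and its adjusted p 0.993. These p-values do not show that a member was equal in the 3 libraries.

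The spread of S100 genes and of annexins is given as the coefficient of variation (CV) over the 3 libraries. The median CV was 7.41% over the 9 annexins tested, 19.8% over the 8 S100 genes tested and 22.4% over all 10434 genes. These medians were not matched for level. Measured annexins, S100 genes and all genes had median levels of 126, 39.6 and 20.5 CPM. Annexin CVs ran from 5.18% for ANXA7 to 11.7% for ANXA4. S100 CVs ran from 3.30% for S100A4 to 42.3% for S100A2, with 25.3% for S100A11, 27.3% for S100A14 and 29.3% for S100A13. CVs of low genes also carry counting error, which was 13.6% for S100A2 and 5.16% for S100A13 but 1.30% for S100A11.

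**Figure D3:**
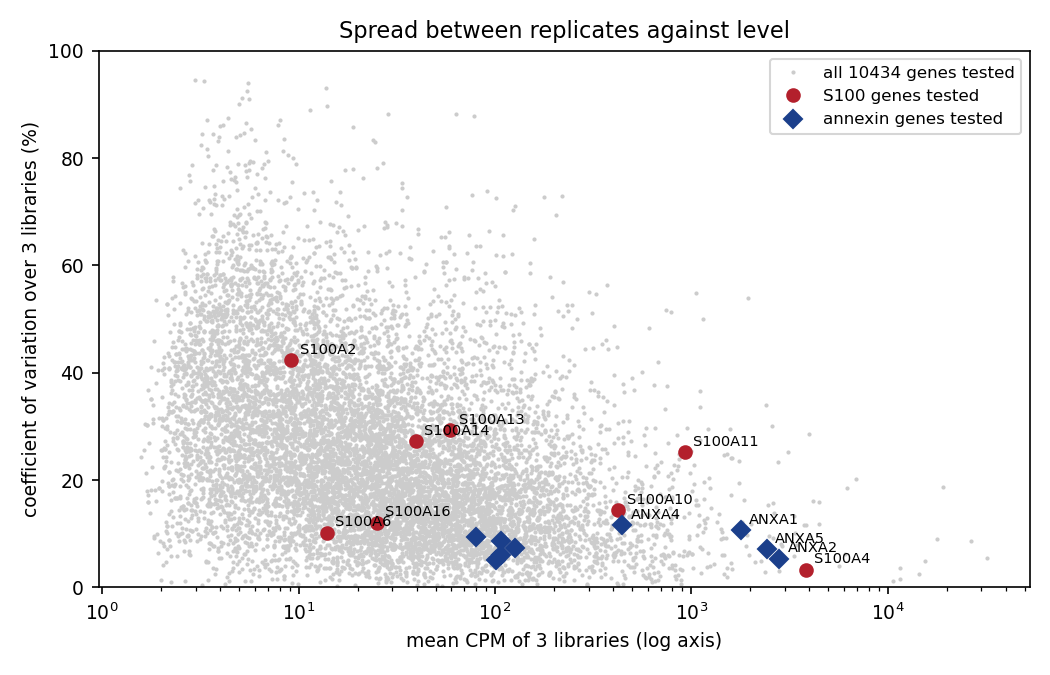
CV over the 3 libraries (%) against mean CPM (log axis) for the 10434 genes tested in grey, S100 genes as circles and annexins as diamonds; 4 grey genes lie above the axis limit of 100%. The 9 annexins lie at 11.7% or below, and S100A2, S100A13, S100A14 and S100A11 lie above 25%.

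The library in which each measured member was highest and lowest is given next as counts, and the families were not tested against each other. Of the 9 measured S100 genes 5 were lowest in replicate 1 and highest in replicate 3 (S100A11, S100A13, S100A14, S100A16 and S100A2), against 25.4% of all 11047 measured genes. The opposite pattern, highest in replicate 1 and lowest in replicate 3, was seen in 0 of 9 S100 genes and in 5 of 9 annexins (ANXA1, ANXA2, ANXA4, ANXA6 and ANXA7), against 24.7% of all measured genes. The counts were the same with DESeq2 size factors, but with library sizes not scaled by TMM, an alternative added after the values were seen, only 3 of 9 annexins showed the second pattern. ANXA5 was the single annexin with the S100A11 pattern. Of these 5 S100 genes S100A13, S100A14, S100A16 and S100A2 follow one another in the reference gene order, while S100A10, next to S100A11, was lowest in replicate 3. The gene with the most S100 reads, S100A4, was highest in replicate 1 by a log2 deviation of only 0.037 from its mean. Some of the ranks in these counts rest on gaps within or near counting error. S100A14 was at 32.9 and 33.9 CPM in replicates 1 and 2 (counting error 6.39%), and S100A16 at 22.6 and 24.2 (7.86%). ANXA4 was at 417 and 413 CPM in replicates 2 and 3 (1.88%).

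**Figure D4:**
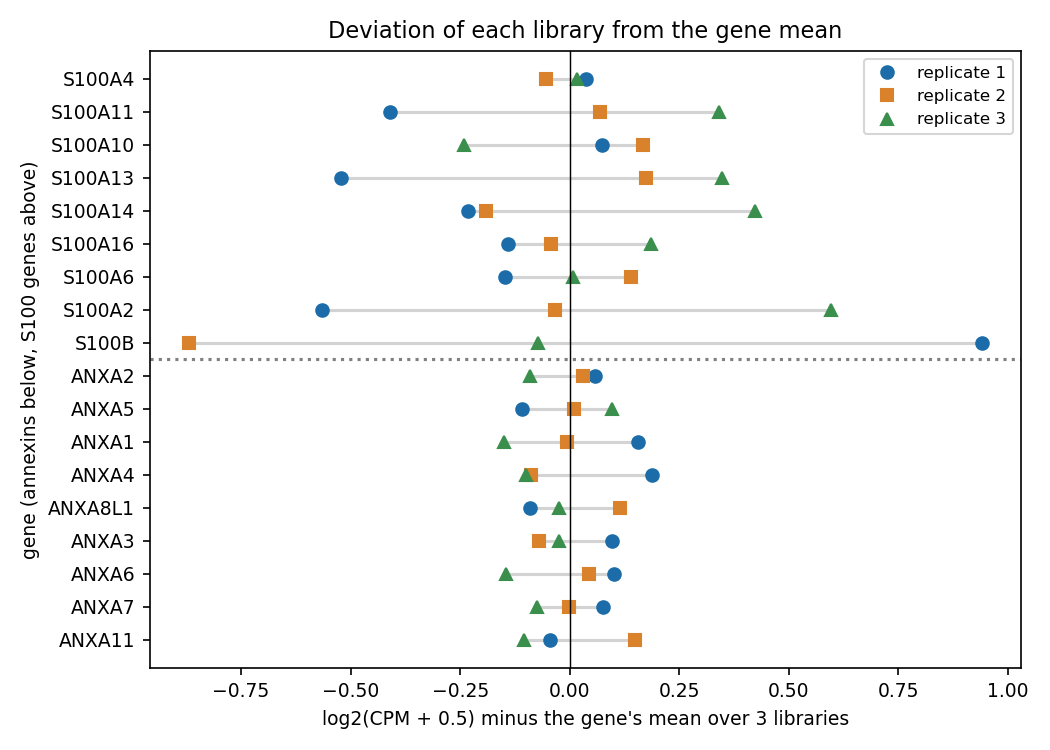
Log2(CPM + 0.5) of each library minus the mean of the 3 libraries, for each measured member, S100 genes above and annexins below the dotted line. Annexin points lie between -0.15 and 0.19, and S100 points reach -0.87 and 0.94 at S100B and -0.56 and 0.60 at S100A2.

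S100 genes and their annexin partners were set against each other within libraries. The log2 ratio of S100A10 over ANXA2, the members of the p11 complex, was -2.72, -2.60 and -2.89 in replicates 1 to 3 (mean -2.73 ± 0.15). That of S100A6 over ANXA11 was -2.58, -2.49 and -2.37 (mean -2.48 ± 0.11). Both ratios stayed near their mean in every library. So did the ratio of ANXA1 over ANXA2 within the annexin family (SD 0.086), so steadiness did not set these partner pairs apart. The ratio of S100A11 over ANXA1 was -1.54, -0.90 and -0.48 (mean -0.98 ± 0.53), lowest in replicate 1, where S100A11 was lowest and ANXA1 highest. S100A8 and S100A9, which form calprotectin, were both at 0 reads and gave no ratio.

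Within families, S100A10 over S100A11 was -0.62 in replicate 1 and -1.68 in replicate 3, with replicate 2 between them (mean -1.10 ± 0.54), the widest spread of the 8 pairs. ANXA1 over ANXA2 was -0.56, -0.70 and -0.72 (mean -0.66 ± 0.086), the narrowest. ANXA5 over ANXA6 was 4.28, 4.46 and 4.73 (mean 4.49 ± 0.23). All 8 ratios kept their sign in the 3 libraries. With 3 replicates an exact sign-flip permutation test cannot give a p below 0.25, so none was run, and the size of each ratio also holds the lengths of both transcripts.

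**Figure D5:**
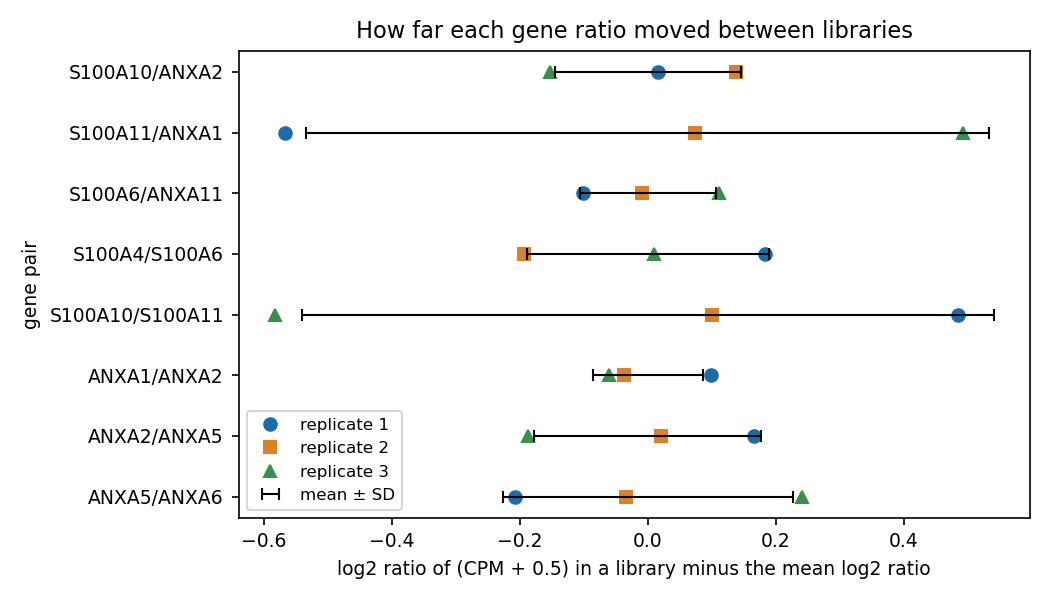
Log2 ratio of (CPM + 0.5) in each library minus the mean log2 ratio, for 8 gene pairs; bars are ± 1 SD of the 3 replicates around the mean. The pairs with S100A11 spread most, with SDs of 0.53 and 0.54, against 0.086 to 0.23 for the others.

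Genes that act with S100 proteins and annexins were counted from lists of known partners. Of the membrane repair genes 17 of 20 in the table were measured, against 34.6% of all genes. The list median was 67.8 CPM, against 0.134 CPM over all genes, including those with 0 reads, and 20.5 CPM over measured genes. The highest were AHNAK (3818 ± 446 CPM), the giant scaffold bound by S100A10 and ANXA2, CAV1 (1470 ± 88.6), which encodes caveolin, and MYOF (1116 ± 30.8), a membrane-fusion protein of the ferlin family. The exceptions were the muscle genes DYSF (7, 4 and 2 reads) and TRIM72 (0 reads), and SYT7 (0 reads). The calpain subunit genes CAPN2 and CAPNS1, whose protease cuts membrane-bound proteins after calcium entry, stood at 832 ± 13.4 and 412 ± 27.0 CPM.

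Of the binding partners of S100 proteins 10 of 16 genes in the table were measured, against 34.6% of all genes. The list median was 44.4 CPM, against 0.134 CPM over all genes, including those with 0 reads, and 20.5 CPM over measured genes. The channel genes KCNK3, TRPV5, TRPV6 and ASIC1 had 0 reads in every library. Beside AHNAK the measured partners included the non-muscle myosin genes MYH10 (1054 ± 171 CPM) and MYH9 (479 ± 118), the latter a target of S100A4. The S100A6 partner CACYBP was at 134, 67.9 and 69.1 CPM in replicates 1 to 3 (mean 90.2 ± 37.5). SUGT1, also an S100A6 partner, was at 38.2, 18.9 and 19.1 CPM (mean 25.4 ± 11.1). Both genes were highest in replicate 1. FGF1, exported with S100A13, had 0, 1 and 1 reads, and IL1A was at 2.09 ± 0.945 CPM.

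For secreted forms, 3 of 6 receptor genes in the table were measured, against 34.6% of all genes, BSG (451 ± 122 CPM), ALCAM (280 ± 57.5) and NPTN (209.8 ± 42.5). TLR4 had 6, 0 and 0 reads, CD36 9, 0 and 0 and MCAM 0, and AGER, FPR1 and FPR2 had no row. Of the plasminogen system, on which the S100A10 and ANXA2 complex acts, 5 of 7 genes were measured, against 34.6% of all genes, led by the inhibitor SERPINE2 (209.7 ± 22.4 CPM), the receptor gene PLGRKT (66.5 ± 12.2) and the activator gene PLAT (38.5 ± 2.61). The exceptions were plasminogen itself, PLG, with 0, 0 and 1 reads, and SERPINB2 with 6, 0 and 0.

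Of other EF-hand proteins 22 of 27 genes were measured, against 34.6% of all genes, with a list median of 51.3 CPM, led by SPARC (17923 ± 1626 CPM), MYL12A (1416 ± 153) and CALU (668 ± 81.8). EFHD1 (9, 6 and 4 reads) and CALB1, CALB2, PVALB and TNNC2 (0 reads each), genes of neurons and striated muscle among other cells, were not. Of the epidermal differentiation list 0 of 11 genes were measured, and FLG, the filaggrin gene, had 0, 0 and 4 reads. In none of these lists did a gene pass the edgeR-based test of variability, with 55 different genes tested, and the smallest adjusted p was that of NUCB2 (0.369; 195 ± 105 CPM, highest in replicate 1).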

How the data were processed

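RNA-seq of 3 BFF116 libraries was used. Per the labels' protocols, cDNA was made and amplified with the NuGEN Ovation RNA-Seq kit by single-primer isothermal amplification, and 500 ng went into each library, with 10 PCR cycles and single reads of 100 bases on a HiSeq1500. The authors deposited whole-number counts per gene, not normalized, and the submitters' processing notes name HTSeq 0.6.1, TopHat2 2.0.10 and bcl2fastq 2.18.0.12. Build, annotation, counting mode and strand: not given in the sources used here. Summary rows that name no gene were left out of library sizes. They held reads in no annotated gene (58.9 to 62.0% of each library's total), reads with several alignments (7.52 to 7.99%) and reads over more than 1 gene (0.235 to 0.253%). Reads with several alignments are missing from gene counts, so members with close copies may be undercounted.

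CPM was computed with edgeR 4.0.16 in R 4.3.3 (TMM factors 0.978, 1.02 and 0.998), and log2 values add 0.5 CPM. Variability was tested on genes with at least 10 counts in each library, as a negative binomial Pearson statistic on the edgeR dispersion trend against chi-square with 2 degrees of freedom, with Benjamini-Hochberg adjustment over all genes and a threshold of 0.05. The test was tested on simulated data. DESeq2 1.42.0 gave alternative size factors and dispersions. Pair ratios were planned per kilobase, but no lengths were in the sources used here, so they are ratios of CPM. Without molecular identifiers PCR copies cannot be separated from molecules, so the floor of 3 counts covers counting error only.

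Members, 11 lists and 9 pairs were chosen with earlier results of these data known. A few list genes are not reported here and were left out of the list counts. Every member is named. Of each list the 3 highest genes with reads are named, with the members above or below 1 CPM where these number 4 or fewer. CAPN2, CAPNS1, CACYBP, SUGT1, NUCB2, the neighbours CHTOP and THEM4, and some genes at or near 0 reads were added after their values were seen.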

Additional observations from a re-analysis of the deposited data

How the results depend on the processing

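No paired analysis was possible because the series has 1 group. DESeq2 size factors, leaving out each replicate in turn, pseudocounts of 0.1 and 1 CPM, and other detection rules and dispersions were tried. The number of members measured was 18 in the main analysis, and the number of measured myeloid genes was 2 in place of 1 without replicate 2, where FCER1G (26, 1 and 14 reads) reached 1 CPM. That was 1 of 128 alternative values of the main counts, shares and pair ratios. The other 127 stayed within 1.5 times (counts) or within 1 SD (shares and ratios) with their sign. For shares and ratios this was largely fixed in advance. Leaving out 1 of 3 replicates cannot move a mean by 1 SD, and size factors nearly cancel in them. Those values therefore do not show robustness. Members called variable numbered 0 under all 7 alternatives of that test, while all genes called numbered 0 to 6, with 0 without replicate 2 and without replicate 3. Mean CPM moved by over 1.5 times in 4 members with few reads. S100B was 2.70 without replicate 1, S100A5 1.70 without replicate 3, S100A3 0 without replicate 3 and 0.284 without replicate 1, and ANXA9 0 without replicate 1 and 0.238 without replicate 3. With library sizes not scaled by TMM, chosen after seeing the data, 3 in place of 5 annexins were highest in replicate 1 and lowest in replicate 3. Depth limits these members and those at 0 reads, since 3 reads in the shallowest library are 0.605 CPM.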
